A study of Mus musculus with 14 samples.

Results

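The Reg genes encode small secreted lectins of the gut epithelium and pancreas, and 5 of them, Reg1, Reg3a, Reg3b, Reg3g and Reg4, are described here, out of 20707 genes listed in the single-cell tables and 27399 in the bulk tables. They were picked by name, with their distribution over cells and their opposite levels after Isx-9 already known, so their values in those comparisons are a description and carry no test. The material was mouse intestinal organoids, epithelial cultures grown from stem cells in a medium with EGF, Noggin and R-spondin1. Isx-9 is a small molecule that the series, by its title, studied as an inducer of enteroendocrine cells, the endocrine cells of the gut epithelium, which release hormones.

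4 single-cell libraries were used, 1 for each condition: wild-type organoids without treatment, organoids whose Chgb gene carries an mCherry knock-in reporter, without treatment, and the same reporter organoids after 6 days with 0.05% DMSO or with 25 µM Isx-9. Stem cells sorted from organoids with an Lgr5-EGFP knock-in were measured in bulk after 6 hours of the same agents, with 2 libraries each. Treatment began on the second day after passaging. The labels do not say how many animals or cultures stood behind a library, and a reporter line may be 1 clone. Such organoids are epithelial cultures. In the single-cell libraries 7 immune marker genes summed to 2.12 to 4.04 CPM, 8 mesenchymal markers to 1.13 to 1.48 without Isx-9 and 15.3 with it, and 6 endothelial and glial markers to 2.85 to 2.94 and 25.0. CPM is the number of UMIs, single counted transcript molecules, of a gene per 1000000 UMIs of the library or cluster.

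Reg3b and Reg3g are known as antibacterial lectins that enterocytes and Paneth cells release into the lumen, and their genes are induced by microbes and by the cytokine IL-22 through the receptor adaptor MyD88 and the transcription factor STAT3. Reg1 and Reg3a are better known from the pancreas and from tissue repair, and Extl3, of the exostosin family, has been described as a receptor for Reg proteins. Reg4 is a more distant member and marks secretory cells of the gut, among them enteroendocrine and Paneth-type cells.

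4 of the 5 genes lie in 1 cluster on chromosome 6 (RefSeq, build GRCm38.p6). Reg3b (chr6:78370885-78373466, plus strand) stands at one end and Reg3g (chr6:78466269-78468874, minus strand) at the other. Reg3a (chr6:78380709-78383839) and Reg1 (chr6:78425983-78428668), both on the plus strand, lie between them, with Reg3d and Reg2 as further members of the cluster. From the first to the last base, the 6 genes cover 97.99 kb. Reg4 lies apart on chromosome 3 (chr3:98222138-98236748, plus strand).

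**Figure D1:**
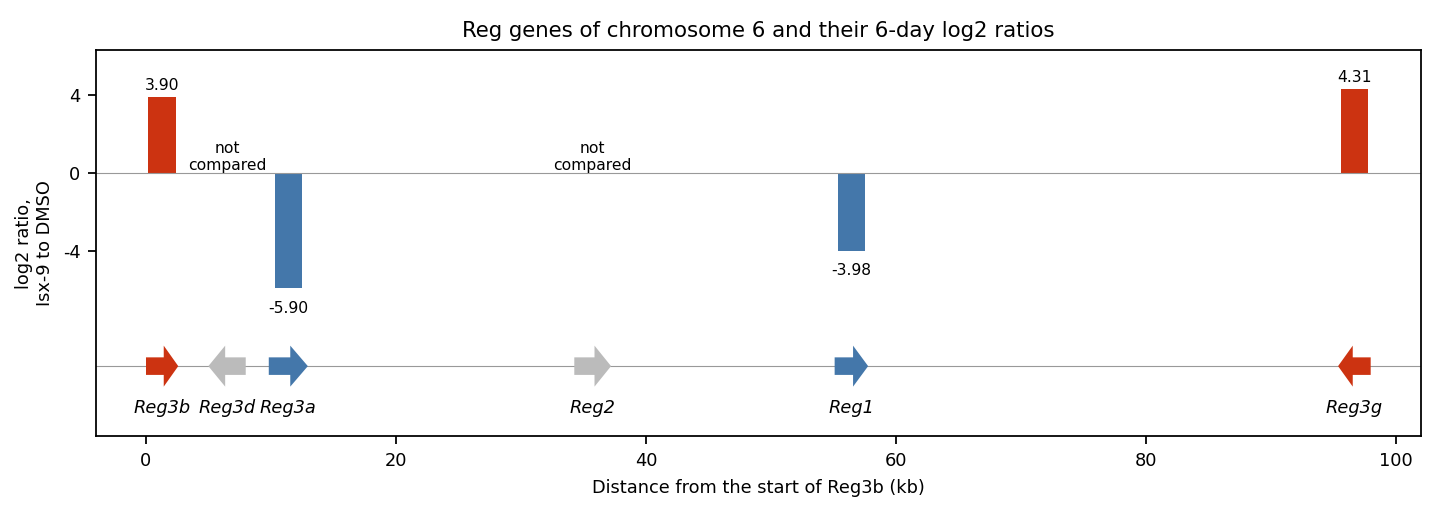
The 6 Reg genes of the chromosome 6 cluster, drawn to scale as arrows in the direction of transcription, with the distance from the start of Reg3b in kb on the horizontal axis. The bars give the log2 ratio of CPM, Isx-9 to DMSO, in the 6-day single-cell libraries, 1 library each: the outer genes Reg3b (3.90) and Reg3g (4.31) were higher and the inner genes Reg3a (-5.90) and Reg1 (-3.98) were lower, and Reg3d and Reg2 had too few UMIs to compare.

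The windows around the transcription starts, 250 bases before to 50 bases after, are shown for the 4 clustered members because these genes fell into 2 pairs that moved in opposite directions. Capitals mark matches on either strand to the TATA-box letters TATAAA, and matches to TTCNNNGAA, the letters that STAT factors are known to recognise. The sequences are from RefSeq, GRCm38.p6, written 5′ to 3′ on the strand of the gene: chr6:78370635-78370934 for Reg3b, chr6:78468825-78469124 for Reg3g, chr6:78380459-78380758 for Reg3a and chr6:78425733-78426032 for Reg1.
Reg3b: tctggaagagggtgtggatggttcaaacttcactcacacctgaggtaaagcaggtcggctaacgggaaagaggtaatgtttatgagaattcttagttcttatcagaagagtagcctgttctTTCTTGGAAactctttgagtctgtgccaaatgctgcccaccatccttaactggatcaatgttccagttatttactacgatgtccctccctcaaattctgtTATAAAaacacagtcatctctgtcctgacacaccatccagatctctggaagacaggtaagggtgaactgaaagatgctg
Reg3g: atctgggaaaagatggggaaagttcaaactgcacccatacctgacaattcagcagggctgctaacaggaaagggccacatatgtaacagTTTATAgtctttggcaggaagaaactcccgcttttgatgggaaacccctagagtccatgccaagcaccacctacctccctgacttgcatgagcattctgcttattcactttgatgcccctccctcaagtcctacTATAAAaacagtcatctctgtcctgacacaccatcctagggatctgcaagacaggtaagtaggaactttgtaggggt
Reg3a: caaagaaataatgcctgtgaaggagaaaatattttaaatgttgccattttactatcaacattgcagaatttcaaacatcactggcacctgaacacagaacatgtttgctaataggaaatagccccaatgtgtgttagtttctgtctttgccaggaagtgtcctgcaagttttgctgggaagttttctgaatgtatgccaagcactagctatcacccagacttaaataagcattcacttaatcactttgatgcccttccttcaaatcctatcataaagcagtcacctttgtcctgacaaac
Reg1: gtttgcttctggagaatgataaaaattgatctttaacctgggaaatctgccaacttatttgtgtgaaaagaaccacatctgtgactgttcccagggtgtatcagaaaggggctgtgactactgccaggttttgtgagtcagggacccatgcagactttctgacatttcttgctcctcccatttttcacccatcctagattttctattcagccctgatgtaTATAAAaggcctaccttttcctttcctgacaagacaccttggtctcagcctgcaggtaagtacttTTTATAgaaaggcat

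In a global alignment, the Reg3b and Reg3g windows were identical at 68.1% of 304 aligned columns, and the other 9 pairs among the 5 members at 44.3% to 52.4%. TATAAA ended 24 bases before the start in Reg3b, 22 in Reg3g and 25 in Reg1, and was not in the Reg3a and Reg4 windows. Among 32851 RefSeq promoter windows of the same length, 13.6% held TATAAA. Of the 5 windows, TTCNNNGAA matched only that of Reg3b, as TTCTTGGAA from 129 to 121 bases before the start, against 8.3% of all windows. TGAGTCA, the AP-1 letters, matched in Reg1 alone of the 5 (5.2% of all windows), and CACCTG, an E-box, matched in Reg3a, Reg3b and Reg4 (20.2%). The searches covered both strands, no 2 of these matches overlapped, and a match is a description of letters and not a measured site.

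The single-cell libraries kept 8744, 9610, 8969 and 9185 cells after filtering, in the order wild type, reporter untreated, DMSO and Isx-9, and their cells had 15007, 12633, 13388 and 8888 UMIs in the median. The doublet caller marked 831 cells of the Isx-9 library and at most 1 cell in each other library, so it did not work in those 3. Pairs of libraries shared 32 to 52 cell barcodes. The wild-type library stood apart: it held 427 CPM of Xist against 0.157 to 0.437 in the reporter libraries, and clusters 7 and 9 were made up mostly of its cells. The Isx-9 library had 7408 CPM of Chgb, the gene of the reporter, against 479 with DMSO, and its cells fell almost entirely into clusters that the other 3 libraries did not fill. With 1 library per condition, a cluster of 1 library may be that library and not a cell type. The bulk libraries held 18909542 to 19487264 counts, and Lgr5, the sorting marker, had 6182 to 7017 counts in all 4.

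Over all 4 libraries the 5 members fell into 3 patterns over the cells, which overlapped without Isx-9. Without Isx-9, enterocyte-like clusters 8 and 12 and the mixed cluster 9 together held 97.9% to 98.1% of the Reg1, 97.1% to 97.8% of the Reg3a and 94.2% to 98.8% of the Reg3b UMIs of a library, but 43.8% to 49.6% of the Reg3g UMIs. With Isx-9, Reg3b and Reg3g were read in non-endocrine cells, as were the fewer Reg1 and Reg3a UMIs. Reg4 was read in secretory cells. The clusters were built without the Reg genes. Over 51 cluster-by-library sums with at least 50 cells each, the correlation of log2(CPM + 1) was 0.888 between Reg1 and Reg3a and 0.894 between Reg3b and Reg3g, and between -0.172 and 0.579 for the other 8 pairs. These sums share libraries, so the correlations are given as a description.

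**Figure D2:**
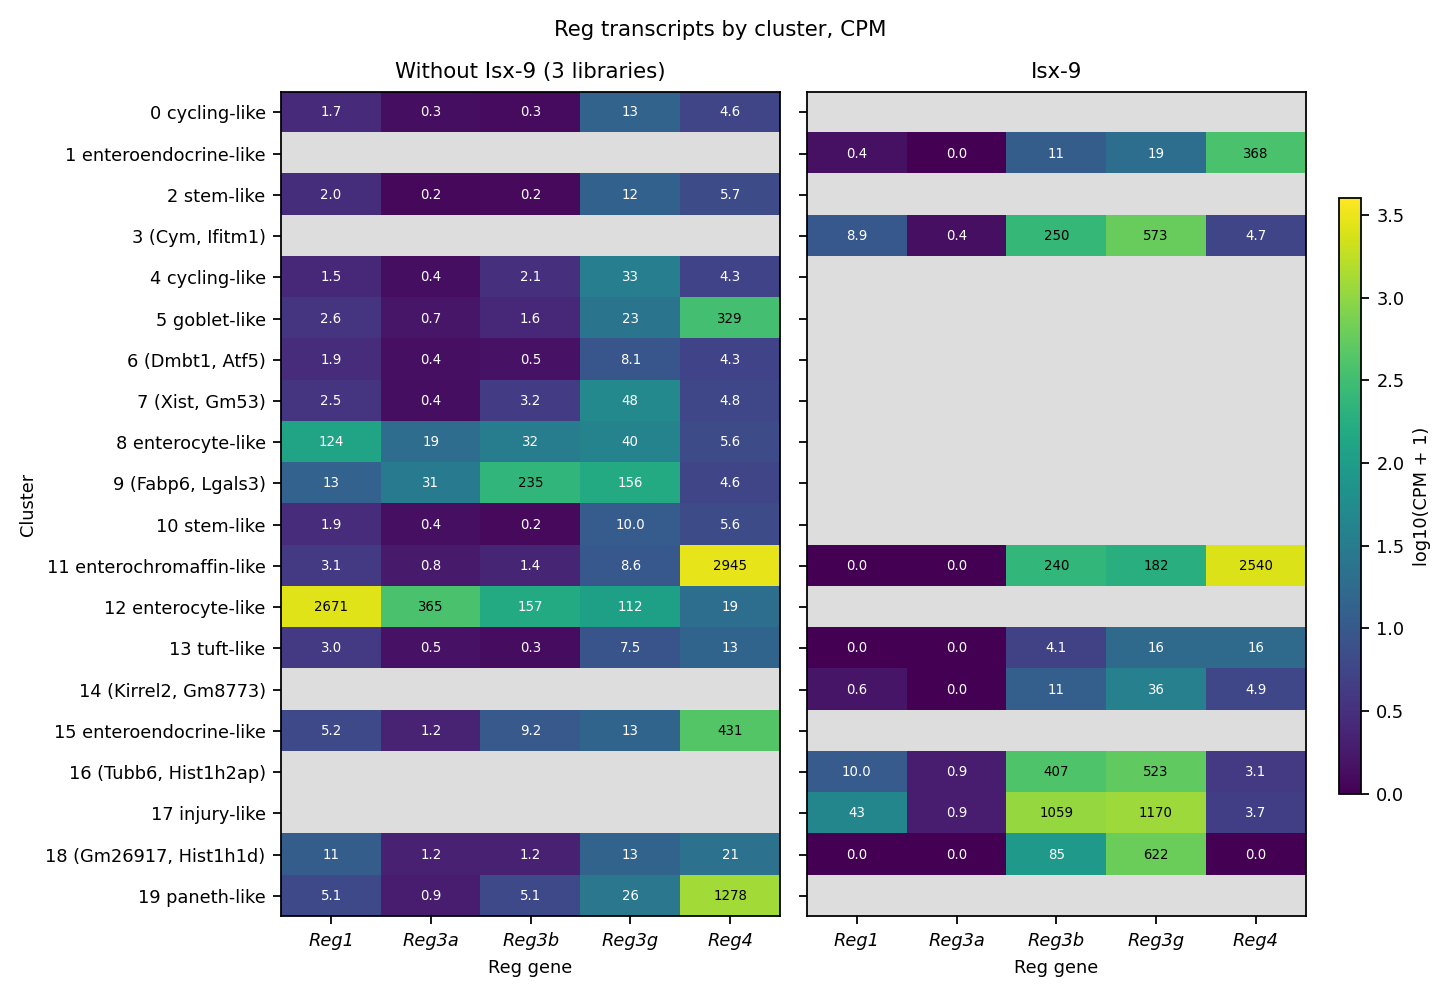
CPM of each Reg gene (columns) in each of 20 clusters (rows), for the 3 libraries without Isx-9 together and for Isx-9, coloured as log10(CPM + 1), with grey where a cluster had under 20 cells. Reg1 (2671) and Reg3a (365) were highest in enterocyte-like cluster 12, Reg3b (1059) and Reg3g (1170.5) in the injury-like cluster 17 of Isx-9, and Reg4 (2945) in enterochromaffin-like cluster 11.

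Reg1 was concentrated in cluster 12, the enterocyte-like cells led by the lipid carriers Apoa4, Apoa1 and Apoc3. There it reached 2454, 2030 and 3378 CPM in the wild-type, untreated reporter and DMSO libraries. This cluster held 78.7%, 89.7% and 90.4% of the Reg1 UMIs of these libraries in 308, 402 and 459 cells. Enterocyte-like cluster 8, led by Ces1f, had 251, 61.7 and 128 CPM. In stem-like cluster 2 the 3 libraries together had 1.96. Free RNA can give such a low level, and its part was not tested.

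Reg1 UMIs came from very few cells. In the DMSO library 14 of 8969 cells held 50% of them, and a single cell held 1356 of 17035. In wild type and untreated reporter organoids 8 and 12 cells held 50%. In cells thinned to 3000 UMIs each, 25.8% of DMSO cells of cluster 12 had a Reg1 UMI, against 0.989% in stem-like cluster 2, with median depths before thinning of 5925 and 13124 UMIs. Thinning kept only the deeper 302 of the 459 DMSO cells of cluster 12. Without thinning, the cluster 12 share was 30.9% of all 459.

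Reg3a, a Reg3 lectin, followed Reg1 into cluster 12, with 171, 359 and 490.2 CPM in the wild-type, untreated reporter and DMSO libraries. In wild type, 48.5% of its UMIs lay instead in cluster 9, a cluster with both enterocyte genes (Fabp6, Slc10a2) and injury-type genes (Ly6d, Sprr1a) among its leaders. The number of Reg3a UMIs per Reg1 UMI was 0.0697, 0.177 and 0.145 in cluster 12 of the 3 libraries, and 2.56 and 2.17 in cluster 9 of wild type and DMSO. In wild type the main clusters of the pair thus differed, since cluster 9 held 2.67% of the Reg1 UMIs. In thinned DMSO cells of cluster 12, 59.0% of 78 cells with a Reg1 UMI also had Reg3a, against 32.1% of the cells without Reg1. In wild type, where 175 of 308 cells of this cluster were deep enough to be thinned, the same shares were 27.9% of 43 cells and 25.0%.

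The genes whose pattern over the 51 sums was most like that of Reg1 were Slc25a45 (0.914), Nat8f5 (0.905), Cyp3a25 (0.898), Cyp2c29 (0.895) and the water channel Aqp8 (0.893), by Pearson correlation. For Reg3a they were the amino acid transporter Slc6a20a (0.975), Nat8f5 (0.955), the dipeptidase Dpep1 (0.947), Nat8 (0.94) and Cyp4f16 (0.935). All these correlations were above that of Reg1 and Reg3a with each other (0.888).

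Reg3b, an antibacterial lectin, had its main source without Isx-9 in different cells of different libraries. In wild type, cluster 9 had 327 CPM and 84.7% of all Reg3b UMIs. In the untreated reporter library this cluster had 12.4 CPM and 5.55% of the UMIs, and cluster 12 held 62.3%. In the DMSO library cluster 9 had 150.0 CPM and cluster 12 had 235, with 34.8% and 52.2% of the UMIs. As with Reg1, few cells carried them: 8, 4 and 6 cells held 50% of the Reg3b UMIs of the 3 libraries, and 1 wild-type cell held 1090 of 5719.

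Reg3g, the other antibacterial lectin, was spread more widely. In the same 3 libraries 189, 241 and 141 cells held 50% of its UMIs. Cluster 9 had 214, 44.8 and 73.9 CPM and cluster 12 had 71.7, 103 and 144, in the order wild type, untreated reporter and DMSO. Outside clusters 8, 9 and 12 lay 50.4% of Reg3g UMIs in wild type and 51% with DMSO, against 5.81% and 3.8% of Reg3b UMIs. In thinned cells of the 3 libraries, 3.4% of stem-like cluster 2 and 0.652% of tuft-like cells had a Reg3g UMI, with median depths of 12960 and 7624 UMIs before thinning.

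With Isx-9, Reg3b and Reg3g were read in the same 3 clusters, which held no cell of the other libraries: cluster 3, led by Cym, Ifitm1 and Ldhb, cluster 16, led by Tubb6 and histone genes, and the injury-like cluster 17, led by Clu, Ly6c1 and Ly6a. These had 250.3, 407 and 1059 CPM of Reg3b and 573, 523 and 1170.5 of Reg3g. Together they made up 45.8% of the Isx-9 cells and held 97.2% of the Reg3b and 97.3% of the Reg3g UMIs. The same clusters held 97.9% of the 817 Reg1 and 100% of the 33 Reg3a UMIs of this library. The enteroendocrine-like cluster 1, with 43.3% of the cells, had 10.5 and 19.1 CPM. Cluster 14, led by genes that include Neurog3, had 11.3 and 35.8.

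The Reg3b and Reg3g transcripts of the Isx-9 library were often read in the same cells. In thinned cells, 75.6% of 1093 cells with a Reg3b UMI also had Reg3g, against 22.4% of the cells without Reg3b. Within clusters 3, 16 and 17 the shares were 80.3% against 45.9%, 77.7% against 47.9% and 89.1% against 57.0%. In cluster 9 of wild type they were 71.6% of 74 cells against 13.1%. In the thinned Isx-9 cells Reg1 was read with this pair as well. Of 101 cells with a Reg1 UMI, 81.2% had Reg3g and 58.4% had Reg3b, against 28.5% and 12.05% of the cells without Reg1. Depth within a cell was fixed by the thinning, and the cells of a library are not replicates, so no test is attached. The number of Reg3b UMIs per Reg3g UMI was 0.437, 0.779 and 0.905 in clusters 3, 16 and 17. In cluster 9 it was 1.53 in wild type and 2.03 with DMSO, but 0.276 in the untreated reporter library (53 and 192 UMIs).

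Over the 51 sums, Reg3b was most like the epithelial cytokine gene Il18 (0.811), Nbl1 (0.81), the malic enzyme gene Me1 (0.784), Ggt1 (0.775) and Npl (0.76). Reg3g was most like the alarmin gene Il33 (0.793), S100b (0.768), Rbms1 (0.741), Nid1 (0.737) and Mgat4c (0.736). The highest correlations of the pair with any such gene were below that of the pair with each other.

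Reg4, the secretory-cell member, was highest in the enterochromaffin-like cluster 11, the serotonin-type endocrine cells led by Afp, Tph1 and Chga. It had 1937, 3435 and 3593 CPM there in the wild-type, untreated reporter and DMSO libraries, and 2540.0 in the 126 cells of this cluster with Isx-9. Paneth-like cluster 19 had 1517, 1172 and 1114, and goblet-like cluster 5 had 309, 349 and 339. The peptide-hormone cells of cluster 15, led by Gcg, Nts and Gip, had 1079 in wild type, 14.7 in untreated reporter and 97.2 in DMSO organoids, and 4 wild-type cells held 50% of the wild-type UMIs of that cluster. Together clusters 5, 11 and 19 held 85.2% of wild-type and 96.1% of DMSO Reg4 UMIs.

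The share of cells with a Reg4 UMI differed between these cell types. In thinned DMSO cells, 83.9% of Paneth-like cells had a Reg4 UMI, against 32.2% of goblet-like and 17.1% of enterochromaffin-like cells, and 1.84% of stem-like cluster 2. In the enterochromaffin-like cluster 16 of 462 DMSO cells held 50% of the UMIs and the highest cell had 665. Most enterochromaffin-like cells had no Reg4 UMI and a few had very many, while nearly every Paneth-like cell had some. Median depths before thinning were 11416, 12496, 7894 and 13124 UMIs in these 4 clusters.

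The genes most like Reg4 over the sums were Mmp20 (0.877), Tulp4 (0.86), the secretory cargo receptor gene Mia3 (0.855), Fgfr3 (0.854) and Asph (0.852).

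**Figure D3:**
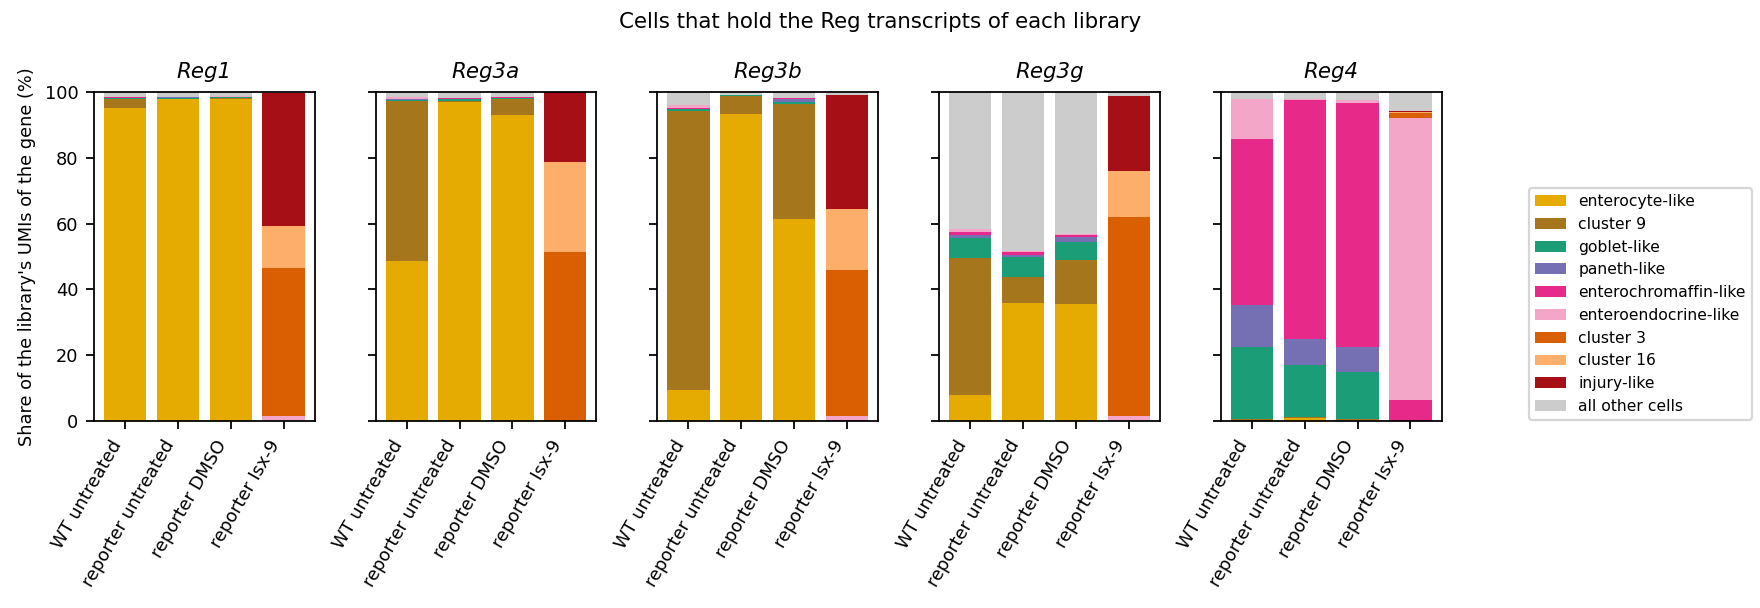
Share of each library's UMIs of a Reg gene (vertical axis, %) by the cells that held them, for the 4 single-cell libraries (horizontal axis), with all other cells in grey. Reg1 and Reg3a came mostly from enterocyte-like cells and cluster 9 without Isx-9. With Isx-9, Reg1, Reg3a, Reg3b and Reg3g came mostly from clusters 3, 16 and the injury-like cluster 17 (97.9%, 100%, 97.2% and 97.3%). Reg4 came mostly from enterochromaffin-like cells without and enteroendocrine-like cells with Isx-9 (74.1% with DMSO, 85.1% with Isx-9).

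The 6-day comparison set the Isx-9 library against the DMSO library. Of the 5 members, 2 were at least 2-fold higher and 2 at least 2-fold lower. The same held for 30.9% (higher) and 4.56% (lower) of the 14812 genes with at least 100 UMIs over both libraries, whose median log2 ratio was 0.355. The members were chosen with this comparison known, so nothing is read from their counts.

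Reg1 stood at 64.1, 70.9 and 134 CPM in the wild-type, untreated reporter and DMSO libraries (exact 95% Poisson intervals 62.8 to 65.5, 69.5 to 72.4 and 132 to 136) and at 8.50 (7.93 to 9.10) with Isx-9. Intervals here cover counting error only. The Isx-9 value was below all 3 others and 15.8-fold below DMSO, a log2 ratio of -3.98. What remained came mostly from clusters 3 (8.91 CPM) and 17 (43.5).

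Reg3a stood at 9.03, 13.2 and 20.5 CPM without Isx-9 and at 0.343 (0.236 to 0.482) with it, 33 UMIs against 2611 with DMSO. The ratio was 59.9-fold lower, a log2 ratio of -5.90. Cells of cluster 12, the main source of both genes with DMSO, numbered 459 with DMSO and 0 with Isx-9. Apoa4, its leading gene, was 85.6 CPM with DMSO and 2.33 with Isx-9. Of the 20 enterocyte markers, all measured, 12 were at least 2-fold lower and 2 higher, beside 4.56% and 30.9% of all genes. Their summed level was 659 with Isx-9 against 2036 to 2795 in the other libraries. Clusters 8 and 9 had 630 and 349 cells with DMSO and 1 and 14 with Isx-9. With so few such cells left, Reg RNA per enterocyte could not be compared. The part of the cell numbers in the Reg1 and Reg3a totals was not tested.

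Reg3b stood at 42.1, 7.35 and 16.1 CPM in the wild-type, untreated reporter and DMSO libraries and at 242 (239 to 245) with Isx-9. The 3 values without Isx-9 differed among themselves by up to 5.74-fold, and all lay below the Isx-9 value, which was 14.98-fold that of DMSO (log2 ratio 3.90). In thinned cells, 12.6% had a Reg3b UMI with Isx-9 and 0.873% with DMSO, and 20.2% and 1.80% without thinning.

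Reg3g stood at 56.1, 18.7 and 20.4 CPM without Isx-9 and at 405 (401 to 409) with it, 19.9-fold that of DMSO (log2 ratio 4.31). Shares of thinned cells with a UMI were 29.1% with Isx-9 and 3.85% with DMSO, and 43.9% and 13.6% without thinning. In the Isx-9 library 124 cells held 50% of the Reg3b and 415 cells 50% of the Reg3g UMIs, against 6 and 141 with DMSO. Injury-type markers did not share 1 direction. Their summed level was 920 CPM with Isx-9 and 286 to 560 in the other libraries, with Clu alone at 418 with Isx-9 and 8.19 with DMSO. Of the 11 measured of 12 markers, 5 were at least 2-fold higher than with DMSO and 3 lower, beside 30.9% and 4.56% of all genes. Mesenchymal markers summed to 15.3 CPM with Isx-9 and 1.25 with DMSO, with 4 of the 5 measured of 8 at least 2-fold higher, and endothelial and glial markers to 25.0 and 2.86 CPM, with all 4 measured of 6 higher, among them Pecam1, an endothelial marker (13.7 and 0.425 CPM). The part of these markers in the Reg3b and Reg3g values was not tested.

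Reg4 stood at 139.8, 156 and 169 CPM without Isx-9 and at 131 (128 to 133) with it, a log2 ratio to DMSO of -0.37. Its total was 1.29-fold lower than with DMSO, and its source differed. With DMSO 74.1% lay in enterochromaffin-like, 14.4% in goblet-like and 7.66% in Paneth-like cells. With Isx-9 85.1% lay in enteroendocrine-like cluster 1, at 368 CPM, and 6.32% in cluster 11. Goblet-like and Paneth-like cells numbered 673 and 121 with DMSO and 9 and 7 with Isx-9, and Muc2 and Lyz1, their defining products, were 35.6 and 386 CPM with DMSO and 2.24 and 143 with Isx-9. In cells outside the enteroendocrine-like and enterochromaffin-like clusters, the log2 ratio of Reg4 was -1.57. In thinned Isx-9 cells, 13.3% of cluster 1 had a Reg4 UMI against 1.24% of cluster 3, with median depths of 7108 and 12704 UMIs.

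**Figure D4:**
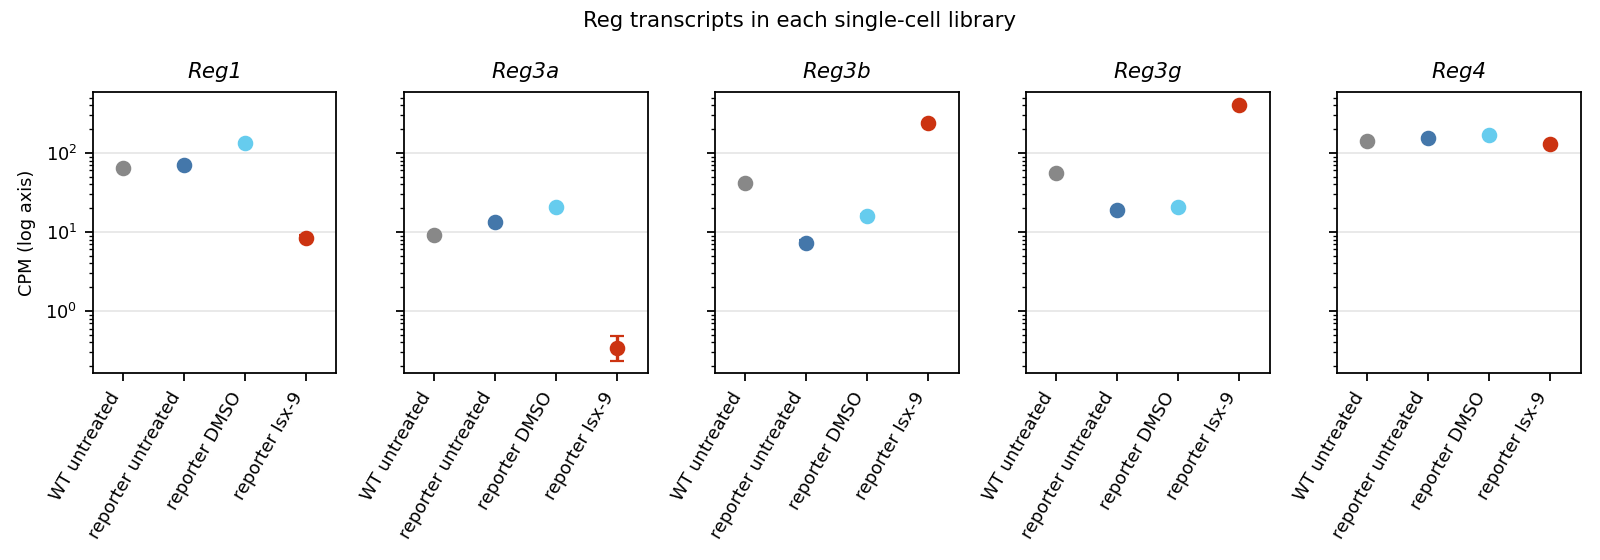
CPM (vertical log axis) of each Reg gene in the 4 single-cell libraries (horizontal axis), with exact 95% Poisson intervals as bars, mostly smaller than the points, that cover counting error only. Reg1 and Reg3a were lowest with Isx-9 (8.50 and 0.343), Reg3b and Reg3g highest (242 and 405), and Reg4 lay between 131 and 169 in all 4 libraries.

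The 2 related genes of the cluster outside the list were nearly unread. Reg2 had 5 UMIs in the Isx-9 library and is not listed in the other tables, which hold only genes seen in at least 3 cells. Reg3d had 8, 4 and 7 UMIs in the libraries without Isx-9.

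The libraries without Isx-9 differed from each other as well. The reporter and wild-type lines also differed in Xist, as given above, and Hoxb genes were among the leading genes of cluster 7. Sex and gut segment are not in the labels used here, and a difference in either cannot be told apart from the reporter. In the untreated reporter library against wild type, Reg3b was 5.74-fold and Reg3g 3.0-fold lower, and Reg1, Reg3a and Reg4 were 1.11-fold, 1.46-fold and 1.12-fold higher. Among 13219 genes, 2.26% were at least 2-fold lower and 1.01% higher. Without clusters 7 and 9, chosen for removal after seeing the data, the log2 ratios of Reg3b and Reg3g were -0.13 and -0.92, against -2.52 and -1.59 with all cells, and that of Reg3a was 1.11 against 0.55. Injury-type markers moved the same way, with a summed level of 560 CPM in wild type and 286 in the reporter library and 5 of 9 measured markers at least 2-fold lower, and their part was not tested.

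DMSO against untreated reporter organoids was the closest of the 3 pairs compared, with 0.0609% of 13130 genes at least 2-fold higher and 0.0381% lower. Reg3b was 1 of the 8 higher genes, at 2.2-fold, and Reg1 and Reg3a were 1.89-fold and 1.55-fold higher. Reg3g and Reg4 differed by 1.09-fold and 1.08-fold. Without clusters 7 and 9 the Reg3b log2 ratio was 0.61, against 1.14 with all cells, so it was then under 2-fold. Cells of cluster 12 numbered 402 and 459 in these libraries. The Reg3b totals of these libraries rested on few cells, 4 and 6 of which held 50% of the UMIs.

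At 6 hours, stem cells sorted from organoids were compared after Isx-9 and after DMSO. The values are read counts as CPM scaled by TMM factors, as mean ± SD of 2 libraries. Of the 5 members, 4 passed the filter on low counts, 2 had an adjusted p under 0.05 in edgeR and higher values with Isx-9, and none had lower ones. The rule for the members used this comparison as well, so these counts and the values below are a description. Among 17418 tested genes 47.3% passed that threshold, 27.3% higher (4755) and 20% lower (3488). Nothing is read from the member counts against these shares. Scaled by library size alone, the split over all genes was 5475 higher and 2095 lower.

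Reg3g had 70 and 52 counts in the DMSO libraries and 432 and 411 with Isx-9, or 3.32 ± 0.639 and 21.0 ± 0.721 CPM (SD, n = 2). Both Isx-9 libraries lay above both DMSO libraries, as for 38.9% of tested genes, and the log2 fold change was 2.66 (SE 0.21). Reg3b had 2 and 8 counts with DMSO and 70 and 77 with Isx-9, or 0.274 ± 0.236 and 3.66 ± 0.25 CPM (SD, n = 2). Its groups did not overlap either, and the log2 fold change was 3.72 (SE 0.60), with 5.0 without DMSO replicate 2 and 3.03 without DMSO replicate 1. The authors' deposited table gives 2.67 (standard error 0.287) for Reg3g and 3.75 (0.785) for Reg3b.

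Reg1 had 24 and 159 counts with DMSO and 27 and 70 with Isx-9, so the groups overlapped. The log2 fold change was -1.05 (SE 0.70), and it was 0.89 without DMSO replicate 2 and -1.86 without DMSO replicate 1. The enterocyte list did not differ in 1 direction between the DMSO libraries: of 20 markers, 13 had a higher CPM in replicate 2 and 6 a lower one. Replicate 2 had 374 counts of Apoa4 and 223 of Fabp1 against 169 and 81 in replicate 1, and 315 of Ada and 1664 of Anpep against 418 and 2319. Over the enterocyte list, the summed level was 1450 to 1664 CPM with DMSO and 1559 to 1684 with Isx-9, and Fabp6 had 0 counts with DMSO. Of 18 tested of 20 markers, 4 rose and 2 fell, beside 27.3% and 20% of all tested genes. The part of the enterocyte markers in the Reg1 values was not tested.

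Reg3a had 10 and 8 counts with DMSO and 5 and 7 with Isx-9, too few to pass the filter. Both Isx-9 libraries lay below both DMSO libraries, which also held for 34.8% of the tested genes, and no fold is given. Reg4 had 794 and 690 counts with DMSO and 744 and 1029 with Isx-9, or 40.4 ± 3.34 and 44.2 ± 10.1 CPM (SD, n = 2). Its groups overlapped, and the log2 fold change was 0.13 (SE 0.15). Reg3d had 1 and 0 counts with DMSO and 6 and 4 with Isx-9.

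**Figure D5:**
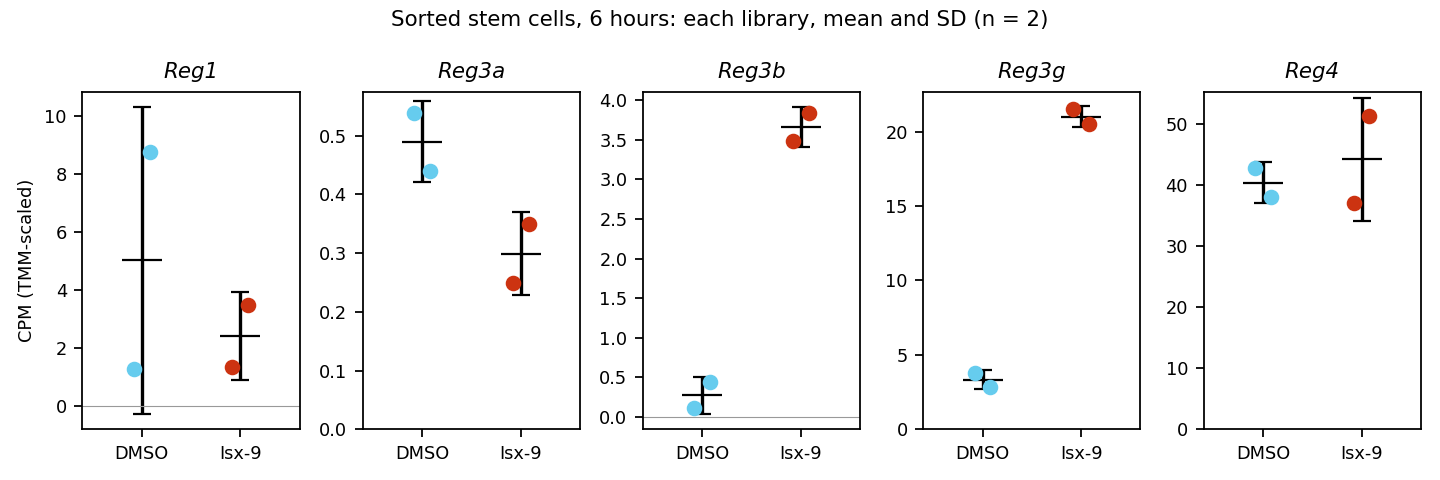
TMM-scaled CPM (vertical axis, a separate scale for each gene) of the 5 Reg genes in stem cells sorted after 6 hours with either agent, with a point for each library, a line at the mean and bars of 1 SD (n = 2). Both Isx-9 points lay above both DMSO points for Reg3b and Reg3g, as for 38.9% of tested genes, and below them for Reg3a, as for 34.8%, and the groups overlapped for Reg1 and Reg4.

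Markers of other cells in the sorted libraries were read beside these values. Over all tested genes, 27.3% rose and 20% fell in edgeR, and the marker counts were not tested against these shares. Injury-type markers had a summed level of 167 to 211 CPM with DMSO and 253 to 256 with Isx-9, and 6 of the 9 tested of 12 rose, among them Il33 (log2 fold change 2.46) and Clu (1.24). Tuft markers had 20.5 to 23.7 CPM with DMSO and 53.0 to 62.5 with Isx-9, and 6 of the 11 tested of 15 rose. Of the 8 mesenchymal markers 3 were tested and all 3 rose, Pdgfra, Pdgfrb and Col1a1, with a summed level of 2.15 to 2.53 CPM with DMSO and 20.2 to 27.4 with Isx-9. Of the 6 endothelial and glial markers 4 were tested and 3 rose, Kdr, Pecam1 and S100b, from a summed 2.69 to 3.31 CPM to 7.98 to 9.27. Stem markers fell in 7 of 10 and rose in 1, and cycling markers fell in 8 of 14. Paneth markers had 839 to 1177 and 994 to 1163 CPM, with 1 of 15 higher. In bulk samples fewer cells of a type and less RNA per cell cannot be told apart, and the part of these markers in the Reg values was not tested.

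The pathway around the Reg genes was read from lists of receptors, signalling genes, other lectins and other defence genes. At 6 hours 27.3% of all tested genes rose and 20% fell, and no list was tested against these shares. Of the 5 exostosin genes, 3 rose at 6 hours in edgeR and none fell, with a median log2 fold change of 0.38 against 0.02 over all tested genes: Extl1 (1.74, SE 0.23), Extl2 (0.49, SE 0.17) and Extl3 (0.38, SE 0.09), the gene of the described Reg receptor. At 6 days, Extl1 and Extl3 were 2.60-fold and 2.10-fold higher with Isx-9 than with DMSO. Extl3 had 6.84 to 7.19 CPM in the 3 libraries without Isx-9 and 15.1 with it.

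Of 32 genes of cytokine and Toll-like receptor signalling, 30 were tested at 6 hours. Of these, 11 rose and 3 fell, beside 27.3% and 20% of all tested genes, and the median was 0.18. Stat3, the transcription factor downstream of IL-22 and IL-6 family receptors, rose by 1.01 (SE 0.09), and Socs3, its feedback inhibitor, by 0.77 (SE 0.12). Of the IL-6 family receptor genes in the list, Osmr rose by 4.17 (SE 0.70), Il6ra by 2.73 (SE 0.64) and the shared subunit Il6st by 0.46 (SE 0.11), and Lifr had 1 and 0 counts with DMSO and 189 and 146 with Isx-9. Il11ra1 did not pass the test in edgeR (0.29, SE 0.19, adjusted p = 0.243). Neither did Myd88 (-0.05, SE 0.12, adjusted p = 0.756), Jak1 (0.13, SE 0.08, adjusted p = 0.2) or Jak2 (-0.13, SE 0.10, adjusted p = 0.31). Tlr5, the flagellin receptor, rose by 2.17 (SE 0.50). Il22ra1, the epithelial receptor for IL-22, fell by 0.61 (SE 0.22), and Nfkb1 fell by 0.45 (SE 0.08).

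At 6 days, 28 genes of this list were measured, 12 were at least 2-fold higher and none lower, beside 30.9% and 4.56% of all genes. The median log2 ratio of the list was 0.555 against 0.355 over all genes. Stat3 had 17.2 to 17.4 CPM in the 3 libraries without Isx-9 and 44.6 with it, and Socs3 had 4.38 to 4.90 and 10.8. Il22ra1 had 0.431 to 0.535 and 0.478, a level with few UMIs. Myd88 had 7.60 CPM with DMSO and 7.62 with Isx-9. Il6ra was 13.1-fold and Tlr2 10.4-fold higher than with DMSO, and Lifr had 0 UMIs with DMSO and 362 with Isx-9.

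Other defence genes of the mucosa did not share 1 direction. At 6 hours 9 of 24 tested genes of 32 rose and 3 fell, beside 27.3% and 20% of all tested genes. The median was 0.17. The neutrophil chemokine gene Cxcl5 had 0 and 1 counts with DMSO and 31 and 23 with Isx-9, Il18 rose by 2.74 (SE 0.52), and the oxidant-producing enzymes Duox2 and Nos2 rose by 2.21 (SE 0.13) and 2.06 (SE 0.27). At 6 days, 6 of 23 measured genes were at least 2-fold higher and 14 lower, beside 30.9% and 4.56% of all genes. Il18 was 2.24-fold higher and Cxcl5 had 0 and 162 UMIs, while Duox2 was 5.82-fold and Nos2 1.99-fold lower. The 2 time points differed in cells, reporter line and method, so they were not compared with each other.

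Other intestinal lectins were read from a list of 16 genes. At 6 hours 2 of the 14 tested rose, the galectins Lgals1 (2.08, SE 0.19) and Lgals3 (1.26, SE 0.17), and 3 fell, among them Clec2d (-1.17, SE 0.38) and Lgals9 (-0.72, SE 0.08), with a median of -0.13. Over all tested genes, 27.3% rose and 20% fell. At 6 days, 1 of 13 measured genes was at least 2-fold higher, Lgals1 at 29.0-fold, and 8 were lower, with Lgals3 3.11-fold and Lgals9 2.18-fold lower. Over all genes, 30.9% were at least 2-fold higher and 4.56% lower. Of the cell-type genes read beside the members, Neurog3, the factor that starts endocrine differentiation, rose by 1.31 (SE 0.23) at 6 hours and had 427 CPM with Isx-9 against 22.6 with DMSO at 6 days. Tph1, the enzyme of serotonin synthesis, had 74.9 against 30.4 CPM. The 24 enteroendocrine markers did not share 1 direction. At 6 hours 5 of 22 tested rose and 2 fell, and Chgb did not pass in edgeR (-0.39, SE 0.17, adjusted p = 0.0847). At 6 days 17 of 24 were at least 2-fold higher and 4 lower, with Gcg 15.9-fold and Ghrl 13.5-fold lower. The shares of all genes given above apply to these counts.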

How the data were processed

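Single-cell matrices were deposited as UMI counts per gene and cell, and bulk files as whole-number counts per gene. The submitters' processing notes name Cell Ranger 3.1.0, Seurat 3.1.5, Trim Galore 0.6.4, HISAT2, HTSeq 0.12.4 and DESeq2 1.24.0 and the build GRCm38, with no role or order. The strand setting and the annotation release are not given in the sources used here. In the authors' deposited table of bulk differential expression, per the file headers, the signal column is the mean normalized count, the log2 fold changes have their standard errors, the score is the Wald statistic, and p-values are raw and adjusted.

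Cells were kept from 500 genes and 1000 UMIs upward and up to 20% mitochondrial UMIs, Scrublet doublets were removed per library, and the 4 libraries were clustered together without the Reg genes and without batch correction (scanpy 1.11.5, 2000 variable genes, 30 components, 15 neighbours, Leiden resolution 1). Clusters were named from marker lists. UMIs were summed per library and cluster, with exact Poisson intervals, and given as CPM. Shares of cells used cells thinned to 3000 UMIs, which left out 505 to 721 shallower cells per library. Bulk counts were filtered with filterByExpr, TMM-scaled and fitted with edgeR 4.0.16 (quasi-likelihood, 2-sided, Benjamini-Hochberg over 17418 genes, threshold 0.05). In simulated data for this comparison, with 200 of 17418 genes changed, it recovered 29.5% at 1.5-fold, 83% at 2-fold and 98% at 4-fold. The simulation gave all genes 1 common spread between libraries, with as many rises as falls. In the data 47.3% of genes were called, more of them higher than lower. The simulated rates may not hold there, also for low-count genes such as Reg3b. The spread behind the p-values is that between libraries, and it may be technical. ATAC-seq samples were not analysed here.

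The members and lists were chosen with earlier results of these data known. Named genes were the 5 members, the 5 genes most like each, up to 4 passing genes of each list by absolute log2 fold change, and fixed genes (Stat3, Socs3, Il22ra1, Extl3, Lyz1, Muc2, Tph1, Chgb and Neurog3). Other genes named, such as Apoa4, Tlr2 and Xist, were chosen after their values were seen. The alternatives are listed with their effect at the end.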

Additional observations from a re-analysis of the deposited data

How the results depend on the processing

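With Isx-9 against DMSO at 6 days, 2 members were at least 2-fold higher and 2 lower with all deposited cells, with doublets kept, with the mean of per-cell values, with totals that leave out Reg and mitochondrial genes, and, added after seeing the data, without the 8% of cells with the highest doublet scores. In clusters not named enteroendocrine or enterochromaffin, 3 were lower, Reg4 (-1.57) among them. In the comparisons among libraries without Isx-9, the 2 lower members became 0 without clusters 7 and 9, and the 1 higher member was then Reg3a against wild type (1.11, from 0.55) in place of Reg3b with DMSO (0.61, from 1.14). Against wild type, the log2 ratio of Reg1 in untreated reporter cells turned from 0.15 to -0.015 with the mean of per-cell values and to -0.21 without clusters 7 and 9, and that of Reg4 from 0.16 to -0.23 without them.

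The members were chosen with these comparisons known, so their counts under the alternatives are a description and no support. In bulk, 2 members were called higher and none lower with library size alone, DESeq2, no low-count filter and the replicate block. Over all genes, these runs called 4028 to 5475 higher. Without DMSO replicate 1, Reg1 was at -1.86. Leaving out each replicate gave Reg1 from -1.88 to 0.89, reversed without DMSO replicate 2, and Reg4 from -0.10 to 0.36, reversed without Isx-9 replicate 2. Over all genes, library size alone moved the median log2 fold change from 0.02 to 0.14 and gave 2095 lower calls against 3488, and leaving out each replicate gave 2062 to 3090. The cause of these shifts was not tested. The replicate numbers share no stated litter or day, and deviations of same-numbered libraries had a correlation of 0.01, so they were not treated as pairs. With the number as a replicate block, 4723 genes were higher and 3408 lower, and the members gave 2 and 0, with Reg1 at -0.76, Reg3b 3.78, Reg3g 2.67 and Reg4 0.12.

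The level in a member's highest cluster depended on the clustering: Reg1 had 2671 CPM at Leiden resolution 1, 782 at 0.5 and 2542 at 2, and Reg4 had 2936, 2236 and 7155. Each single-cell condition has 1 library, no single-cell value has a replicate error, and 4 to 14 cells held 50% of the Reg3b or Reg1 UMIs of a library without Isx-9.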
